A study of Mus musculus with 8 samples.

Results

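Open chromatin at the borders of genes was described from ATAC-seq of mouse brain. In this assay the Tn5 transposase cuts accessible DNA, and peaks mark where cuts pile up. The peaks of 8 libraries were merged into 443327 regions on genome build mm10. Of these, 28251 (6.37%) overlapped the 1 kb on either side of a start or an end of a protein-coding gene and are called gene-end regions here. The gene table held 21887 protein-coding genes with 43774 ends, and their windows covered 79.2 Mb. The strand, which tells the start from the end, was known for 17492 genes. By that strand, 14322 regions lay at a gene start, 7853 lay at an end only, and 5745 lay only at genes of unknown strand.

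The 4 groups held 2 libraries each, all from C57Bl/6J mice. Fn14 KO and their WT littermates were taken at postnatal day 27 without treatment. Fn14 is the receptor of the cytokine TWEAK, and its gene is Tnfrsf12a. Their nuclei came from coronal brain sections labelled as cortex, hippocampus and dLGN, the dorsal lateral geniculate nucleus that relays visual signals through the thalamus. PLX chow, whose compound the labels spell PLX5562 and which was given to remove microglia, and control chow were fed from day 20 to day 32, and the dLGN was microdissected. Each aliquot held 50000 nuclei of all cell types, so fewer nuclei of a type and less open chromatin per nucleus cannot be told apart. The design of the knockout allele, the sex of the mice and whether a library pools mice are not stated in the labels. The replicates are known only as numbered samples, so p-values measure the spread between these libraries.

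Most active genes keep a nucleosome-free stretch at their start, where transcription factors and RNA polymerase assemble. In mammals many such starts lie in CpG islands, stretches rich in the CpG dinucleotide, and are open in nearly every cell type. Starts poor in CpG are more often opened only in the tissue that uses the gene. Chromatin at gene ends is not held open in this general way, and peaks there are often enhancers that happen to lie close by.

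5 promoters show the range found here, from the strongest start to one without a peak. Each is the RefSeq sequence (GRCm38.p6) from 250 bases before to 50 after a listed start, read 5′ to 3′ on the gene's strand, with every CpG in capitals. All 5 lie on the minus strand. Hjurp, which loads the centromeric histone, had the region with the highest −log10 p in every library. Tnfrsf12a encodes Fn14 and had no peak in the KO libraries. Zfp994, a zinc finger gene, had a less enriched peak in KO than in the other libraries. Ddx3y, an RNA helicase gene, lies on chromosome Y, and Tnp2, a sperm nuclear protein gene, had no peak in any library.
Hjurp: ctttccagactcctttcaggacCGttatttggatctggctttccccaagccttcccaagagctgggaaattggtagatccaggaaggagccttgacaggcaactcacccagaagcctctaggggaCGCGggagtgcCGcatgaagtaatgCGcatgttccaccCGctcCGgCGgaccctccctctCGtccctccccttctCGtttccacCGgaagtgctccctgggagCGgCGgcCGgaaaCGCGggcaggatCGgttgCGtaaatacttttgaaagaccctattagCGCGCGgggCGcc
Tnfrsf12a: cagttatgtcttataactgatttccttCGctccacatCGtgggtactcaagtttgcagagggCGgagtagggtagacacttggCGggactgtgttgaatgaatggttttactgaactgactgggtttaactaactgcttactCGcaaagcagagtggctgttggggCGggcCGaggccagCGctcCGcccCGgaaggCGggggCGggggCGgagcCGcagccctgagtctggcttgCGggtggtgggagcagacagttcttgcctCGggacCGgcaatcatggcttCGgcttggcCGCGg
Zfp994: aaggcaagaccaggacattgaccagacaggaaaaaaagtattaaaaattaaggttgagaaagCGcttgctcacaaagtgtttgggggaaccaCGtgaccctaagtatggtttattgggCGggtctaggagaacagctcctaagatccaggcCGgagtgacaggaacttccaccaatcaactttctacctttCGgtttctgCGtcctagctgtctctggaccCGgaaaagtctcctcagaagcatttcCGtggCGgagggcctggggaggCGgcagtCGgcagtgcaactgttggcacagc
Ddx3y: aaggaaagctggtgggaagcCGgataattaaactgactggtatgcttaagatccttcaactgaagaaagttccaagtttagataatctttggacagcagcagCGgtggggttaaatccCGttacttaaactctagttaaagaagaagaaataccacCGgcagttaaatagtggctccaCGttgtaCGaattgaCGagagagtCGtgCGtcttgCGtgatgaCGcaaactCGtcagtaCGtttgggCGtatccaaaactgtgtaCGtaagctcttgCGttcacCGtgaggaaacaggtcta
Tnp2: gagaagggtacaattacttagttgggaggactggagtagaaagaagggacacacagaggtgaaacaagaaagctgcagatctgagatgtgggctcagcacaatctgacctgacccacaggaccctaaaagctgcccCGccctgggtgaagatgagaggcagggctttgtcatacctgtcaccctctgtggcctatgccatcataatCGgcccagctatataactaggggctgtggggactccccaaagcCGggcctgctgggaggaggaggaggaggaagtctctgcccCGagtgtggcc
They stand at chr1:88277530-88277829, chr17:23677400-23677699, chr17:22225565-22225864, chrY:1286564-1286863 and chr16:10788606-10788905, in that order. They hold 22, 20, 11, 17 and 4 CpG, again in that order. The Hjurp promoter matched the NRF1, NF-Y and ETS motifs, and that of Tnfrsf12a matched the SP/KLF and ETS motifs, whose letters and shares over all promoters follow with the promoter results.

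The lists held 248989 to 299822 peaks, and both KO lists (299822 and 299816) lay just under the 300000 that the authors' processing allows, while the WT lists held 256323 and 261201. Gene-end regions with a peak numbered 17816 to 19929 per library. The depth of the libraries is unknown because the lists carry no read counts. Rank correlations of fold enrichment over the 13982 gene-end regions present in every library ran from 0.891 to 0.977 between libraries, and were 0.963 between the KO, 0.963 between the WT, 0.969 between the PLX and 0.977 between the control libraries. Libraries were thus most alike within a tissue, where all correlations were at least 0.948. These 28 correlations share the genome's common pattern of open starts and are given as a description.

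Regions at gene starts were listed in all libraries in a larger share than the other classes. In number, 13982 gene-end regions and 57383 regions elsewhere had a peak in all 8. Of the 14322 regions at a start, 68.9% had a peak in all 8 libraries and 12.7% in only 1. Of the 7853 regions at an end only, 16.6% had a peak in all 8 and 39.1% in only 1. The regions away from genes' borders were closer to the ends, with 13.8% in all 8 and 37.2% in only 1. Counted by gene, a region was present at 12372 of 17492 start windows (70.7%) and in every library at 59.5%. At end windows the shares were 40.7% and 12.7%.

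**Figure D1:**
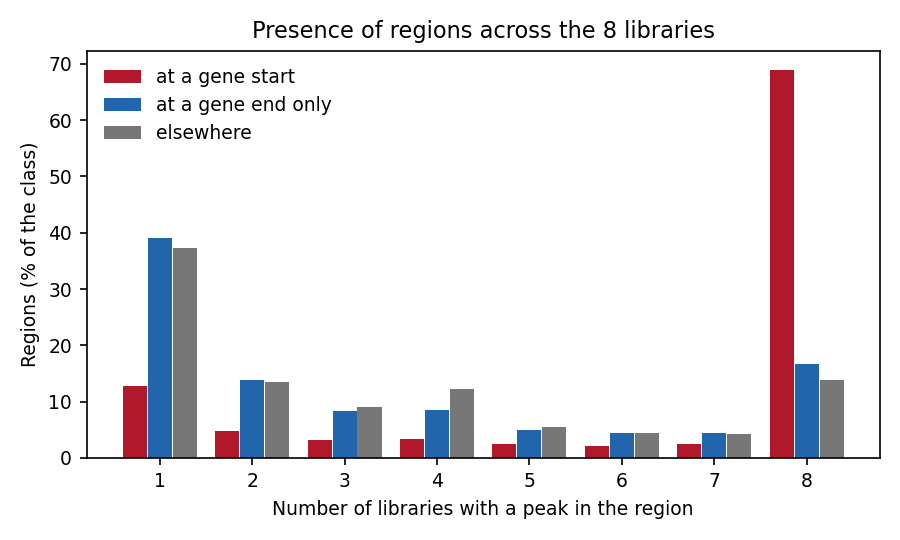
Bars give the share of regions (%) by the number of libraries with a peak, for regions at a gene start, at a gene end only and elsewhere. Of the starts, 68.9% were found in all 8 libraries, against 16.6% of the ends and 13.8% elsewhere.

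Peaks at gene ends were stronger and wider than elsewhere in every library. The authors give each peak a fold enrichment over local background and a −log10 p, and these ratios compare them within each library. The median fold of gene-end regions was 2.17 times that of other regions (geometric mean, range 1.86 to 2.47). The median −log10 p was 5.89 times as high (4.95 to 7.0), and the median width 2.62 times as large (2.41 to 2.82). Each ratio was above 1 in 8 of 8 libraries, with p = 0.0078 in an exact two-sided sign-flip test, the smallest that 8 libraries can give. A wide region has more chance to touch a window. With the region's centre required inside the window the ratios were 2.34, 6.95 and 2.72, with 2 kb windows 1.67, 3.45 and 2.04, and among the 50000 strongest regions 1.49, 3.08 and 1.81.

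The excess sat at the starts. Median fold at starts was 7.54 to 8.84 in the section libraries and 10.4 to 11.2 in the dLGN libraries, while at ends it was 2.75 to 3.42 and elsewhere 2.97 to 3.62. Starts exceeded ends 3.08-fold in fold enrichment, 11.6-fold in −log10 p and 3.09-fold in width (8 of 8 libraries, exact sign-flip p = 0.0078 each). Peak widths at starts had medians of 851 to 1019 bp, against 286 to 323 bp at ends. End regions were thus as narrow and weak as the regions elsewhere, whose median widths were 285 to 308 bp. The ranking by −log10 p shows the same split. Among the 1000 strongest regions of each library, 73.9% to 76.5% lay at starts and 0% to 0.2% at an end only. A further 14.4% to 17% lay only at genes of unknown strand. All gene-end regions together made up 90.3% to 91.7% of the 1000 strongest and 22.3% to 24.6% of the 50000 strongest.

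**Figure D2:**
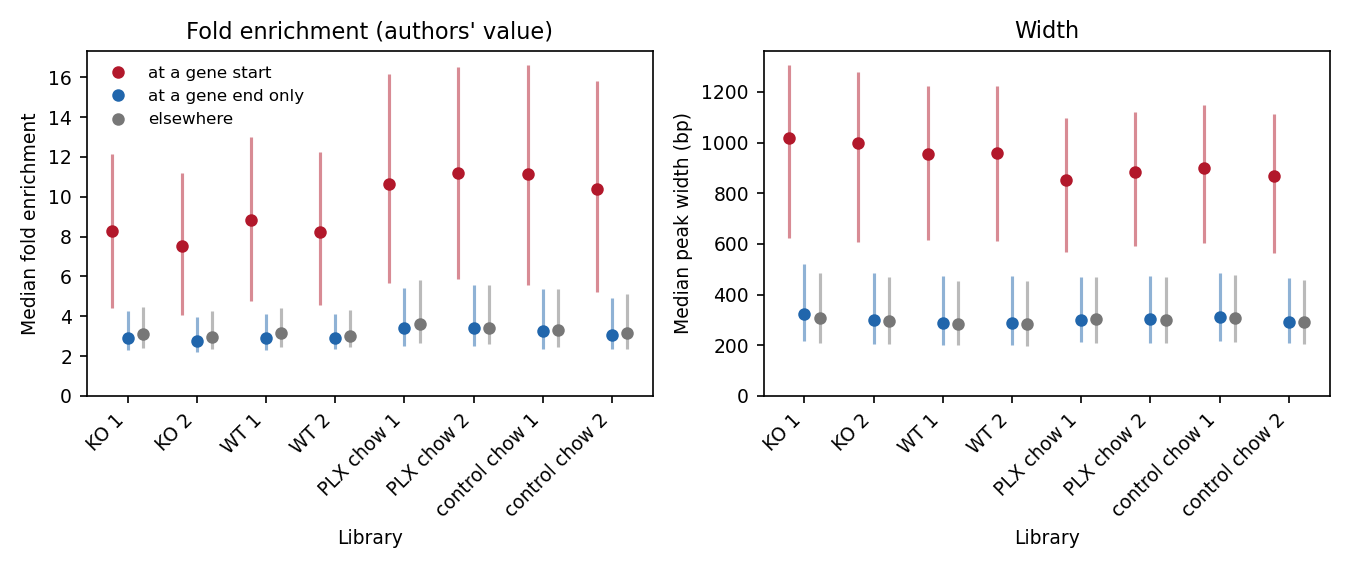
Points give the median fold enrichment (left, the authors' value) and the median width in bp (right) in each of the 8 libraries, for regions at a gene start, at a gene end only and elsewhere, with lines from the lower to the upper quartile. Starts lie above both other classes in every library, while ends and other regions overlap.

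Summits, the highest point of each peak, were centred just upstream of the start. In each library the median summit lay 11 to 14 bp before the annotated start, and 53.6% to 55.6% of the strongest peaks in start windows had it within 100 bp. In end windows 3.17% to 3.99% did so. Summits there were spread over the whole window and were fewest at the gene end itself. Starts that face away from each other within 1 kb, a layout in which neighbouring genes share a promoter, gave stronger peaks than single starts. Over 632 such regions the median fold was 1.43 times, the −log10 p 2.41 times and the width 1.11 times that of 11821 single starts (8 of 8 libraries, exact sign-flip p = 0.0078 each). Of the head-to-head regions 92.4% to 95.4% had a peak per library, against 76.1% to 82.2% of single starts. A head-to-head region had to overlap the windows of both starts, which favours wide regions. A single-start region could be a small one anywhere in its window, and the ratios were not corrected for this.

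**Figure D3:**
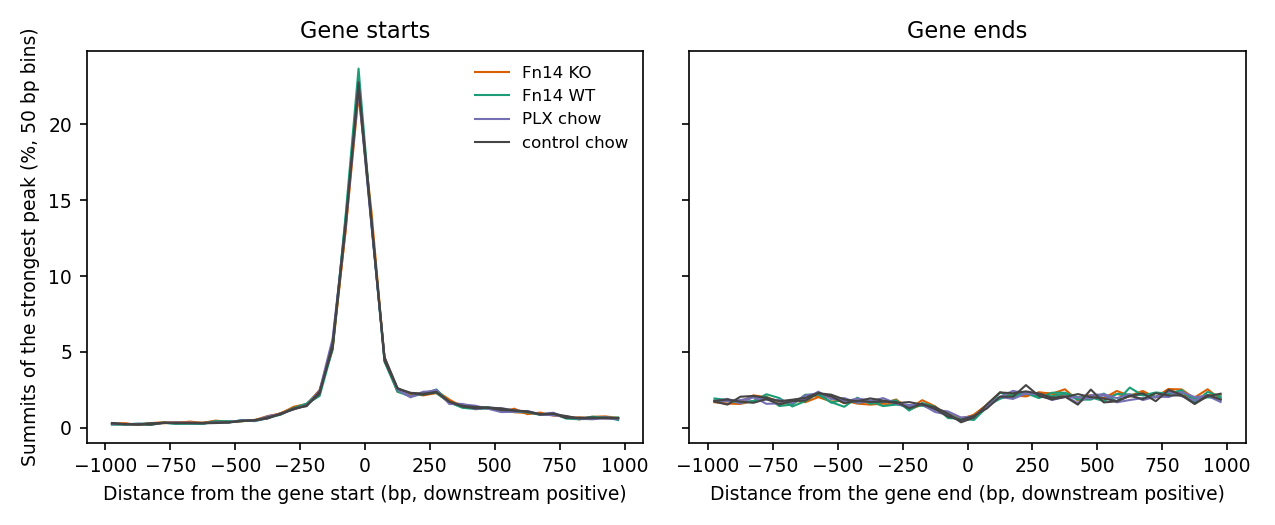
Lines give, for each library coloured by group, the share of summits (%) of the strongest peak per window in 50 bp bins, by distance in bp from the gene start (left) or the gene end (right), downstream positive. The 8 lines lie on each other, with a single maximum at the start and a minimum at the end.

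The Hjurp region (chr1:88276650-88278170) ranked first by −log10 p in all 8 libraries, with folds from 17.7 to 25.2. It was followed by Map9, a microtubule gene, Bcl10, an adaptor of NF-κB signalling, the shared start of Cggbp1 and Zfp654, and Tars, the threonine tRNA ligase. Hltf (a helicase), Armc1, Tasp1 (a protease), Tpp2 (a peptidase) and the shared start of Tmem167 and Xrcc4 (a DNA repair gene) completed the first 10. By fold, Hltf (25.3 to 33.5) and Tars (22.9 to 30.6) lay above Hjurp in every library. The widest regions were a different set. The region between Gm20783 and LOC108167694 was 3113 to 3183 bp wide. Tsc22d2, Fat3 (a giant cadherin), Rims2 (a presynaptic scaffold), Slitrk1 (a synaptic adhesion gene), Nrp1 (a guidance receptor), Klhl29, Arid1b (a chromatin remodeller) and Sp3 (a transcription factor) were also among the 10 widest. Wide did not mean strong: Rims2 was 2654 to 2805 bp wide with folds of 4.55 to 6.03.

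The base composition of the promoter divided open from closed starts. Of 10629 RefSeq promoters that lie at the start given in the gene table, 49.2% were overlapped by a peak in all 8 libraries and 41.7% in none. The former had a median GC content of 61.3% and 21 CpG, the latter 44.7% and 2 CpG. Among promoters with 0 to 4 CpG, 4.22% had a peak in all 8 libraries. The share rose to 30.1% with 5 to 9 CpG, 80.0% with 10 to 19, 91.7% with 20 to 29 and 94.4% with 30 or more. Promoters with a peak in some but not all libraries (967) lay between, with 54.0% GC and 6 CpG.

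**Figure D4:**
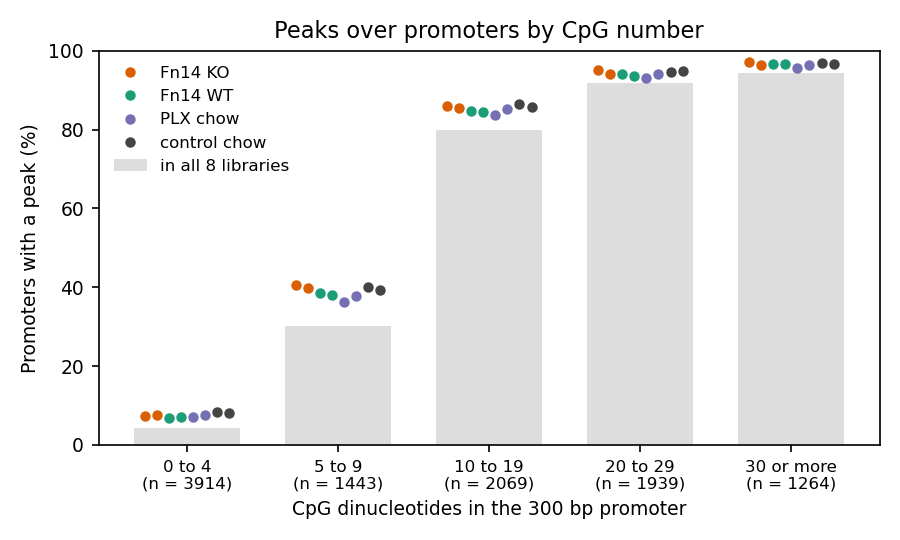
Grey bars give the share of promoters (%) with a peak in all 8 libraries, and points the share in each library coloured by group, by the number of CpG dinucleotides in the 300 bp promoter. From the lowest to the highest class the bars rise from 4.22% to 94.4%, and the points of all groups lie close together.

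Short motifs, searched on both strands, followed this division. The SP/KLF motif GGGCGG was in 67.9% of promoters open in all 8 libraries, 9.31% of those without a peak and 40.6% of all. The ETS motif CCGGAAG was in 18.3%, 2.14% and 10.3%, the NRF1 motif GCGCATG in 7.23%, 1.06% and 4.15%, and the CRE motif TGACGTC in 6.51%, 1.06% and 3.75%. These 4 motifs hold a CpG themselves. The TATA box TATAAA went the other way, with 7.44%, 28.4% and 16.8%, as did the AP-1 motif TGANTCA with 4.23%, 11.7% and 7.89%. The NF-Y motif CCAAT was in 41.7%, 40.7% and 40.3%, nearly level. The E-box CACGTG, which also holds a CpG, was in 11.1%, 3.63% and 7.48%, and the YY1 motif AAGATGG in 7.83%, 5.77% and 6.61%. A match describes these letters and no bound factor.

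Gene families differed widely. Over all 21887 genes, 62.4% had a region at either end with a peak in all 8 libraries. The share was 78 of 83 for ribosomal protein genes, 60 of 67 for histone genes and 15 of 16 for housekeeping genes, of which Ywhaz was the exception with a peak in 3 libraries. Of 1110 olfactory receptor genes, which belong to the nose, 12 had such a region and 985 had none in any library. Of 25 genes of liver, muscle, skin, gut, testis and other organs 6 did, and 14, among them Tnp2 and the muscle gene Ttn, had none. The muscle genes Mylpf and Actn3 were open throughout, with folds of 10.1 to 12.9 and 13.3 to 20.2, and so were Ckm, Apoa1, Krt1 and Krt10. A region in a gene's window can lie at the start of a neighbouring gene.

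Markers of the cell types in the tissue were open to different degrees. A region in all 8 libraries was found for 14 of 15 oligodendrocyte genes, 9 of 10 genes of their precursors, 12 of 15 astrocyte genes, 13 of 18 genes of inhibitory neurons, 23 of 25 synapse genes and 18 of 20 activity-regulated genes. It was found for 9 of 16 endothelial and mural genes and 9 of 25 microglial genes. Among defining markers, Sox10 of oligodendrocytes had a peak in 5 libraries, Aqp4 and Slc4a4 of astrocytes in 1 each, and Pecam1 of endothelium in none. Olig1, a factor of the oligodendrocyte lineage, had folds of 8.0 to 14.6, Glul of astrocytes 8.38 to 15.5 and Syt1, the calcium sensor of synaptic release, 11.9 to 19.7.

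The start of Tnfrsf12a had a peak in WT and none in KO. The peak (chr17:23677365-23677642), which spans the start, had folds of 2.85 and 2.42 in WT, 2.59 and 3.44 in PLX chow, and 3.44 and 3.56 in control chow. Every library without the knockout thus carried it and neither KO library did. The WT peaks had a −log10 p of 13.6 and 8.02, and the weakest peaks listed in KO had 2.85 and 2.05. At the other end of the gene only weak peaks were listed, with folds of 1.68 in KO 1, 1.58 in WT 1, 2.04 in PLX chow 1 and 1.92 in control chow 2. The neighbouring start shared by Hcfc1r1 and Thoc6 was open in KO and WT alike, with 13.6 and 12.3 in KO and 12.4 and 11.7 in WT. Tnfsf12, the gene of the ligand TWEAK, kept regions at both ends in all 8 libraries, with folds of 2.44 and 3.13 in KO against 3.88 and 3.74 in WT at 1 end and 4.93 and 4.13 against 4.37 and 3.27 at the other.

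Over all gene ends, the gap between KO and WT in the share with a peak depended on the length of the lists. A peak was present in 69.9% ± 0.886 (SD, n = 2) of gene-end regions in KO and 65.0% ± 0.105 (SD, n = 2) in WT, and the difference fell from 4.93 to 0.566 percentage points when all lists were cut to the 177040 strongest regions. With 2 against 2 libraries an exact two-sided permutation test cannot go below p = 0.33, and none of the 5 summary values reached less (adjusted p of at least 0.417). The fold ratio of gene ends over other regions was 1.92 and 1.86 in KO, below the 2.07 and 2.06 of WT, and the width ratio was 2.70 and 2.74, below 2.82 and 2.82. Neither overlapped, and with lists of equal length the differences were -0.139 and -0.167. The share of gene-end regions among the 50000 strongest was 24.2% ± 0.618 in KO against a WT share of 24% ± 0.170 (both SD, n = 2).

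By presence, 718 gene-end regions (2.90%) had a peak in both KO and neither WT library, where 4.7% of all regions did, and 191 (0.773%) had the reverse, where 1.59% did. Both shares were below the background, and among starts they were 1.82% and 0.420%. Restricted to regions among the 50000 strongest of both libraries of 1 group and without a peak in the other group, 1 gene-end region was left, against 0.00435% of all regions for KO and 0.00124% for WT. It lay at Dynlt1b, a dynein light chain gene, with folds of 4.23 and 4.42 in KO and no peak in the other 6 libraries. Dynlt1b has near-identical neighbouring copies, and whether reads were split among them was not tested. Next in KO came Kcng1 (a potassium channel subunit), Pax7 (a transcription factor), Cfap77, Nolc1, Ccl11 (a chemokine), Pwwp3a, Ffar1 (a fatty acid receptor), Nkpd1 and Pdilt. In WT the list was led by Tmem14a (3.83 and 3.44), Cct2 (a chaperonin subunit) and Epc1, then Siah3, Tnfrsf12a itself and Birc2, an inhibitor of apoptosis that binds receptor adaptors. Slc27a1, Gcnt4, Phkb and Dusp6 followed. At Birc2 this was a small flanking peak with folds of 2.06 and 2.21, and its main start region was open in every library with 14.2 to 21.3.

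Of the 22 genes of the TWEAK, TNF and NF-κB pathway list, Tnfrsf12a included, 20 to 21 had a gene-end peak in each library and 19 had a region present in all 8. To compare libraries on 1 scale, each gene's strongest region was placed as a percentile among the 50000 strongest of its library. Over all 13593 genes with a value, 20.5% were higher in both KO than in both WT libraries and 19.8% lower. Of 18 such pathway genes 3 were higher (Ikbkb, Nfkbia and Rela) and 3 lower (Chuk, Nfkb1 and Tnfsf12). Both counts are near that background. Traf2, the adaptor that Fn14 binds, had KO folds of 16.6 and 15.5, against 19.4 and 18.3 for WT, while its percentiles overlapped. Nfkb2 had no gene-end region in any library. Of 18 activity-regulated genes 6 were higher in KO (among them Fos, Npas4, Egr3 and Nr4a1) and 3 lower (Jun, Junb and Nr4a2). Npas4 had KO folds of 11.6 and 9.83, against 11.8 and 9.96 for WT, so its percentiles separated while its folds overlapped.

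Of 13 astrocyte genes, 8 were lower by percentile in both KO than in both WT libraries and none higher, beside 19.8% lower and 20.5% higher over all genes. They included Sox9, the astrocyte transcription factor (folds of 7.45 and 6.37 in KO, 8.18 and 8.51 in WT), Slc1a3, a glutamate transporter (4.14 and 3.62 against 4.83 and 4.67), Aldh1l1 and Slc1a2. The folds of Aldh1l1 (10.6 and 9.45 against 11.7 and 10.9) show that the gaps were small. Of 13 oligodendrocyte genes 5 were lower and none higher in KO. No test was made over these lists. Markers of microglia gave 2 higher and 2 lower of 9.

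Fold enrichment in regions with a peak in all 4 section libraries gave few large differences. Folds are the authors' values from separately called lists, so differences between libraries are descriptions. After centring on the median over 15329 gene-end regions (-0.06 on the log2 scale), 26 regions were over 2-fold higher and 2 over 2-fold lower in KO. The genes named from here to the end of the KO comparison were chosen after their values were seen. The 4 largest differences with KO higher were at Krt83, a keratin gene (10.4 and 5.37 against 3.42 and 2.80), and at the starts of C2cd4b (6.30 and 6.21 against 2.87 and 2.02), Tmem270 (11.1 and 7.64 against 2.73 and 4.83) and C1qc, a complement subunit made by microglia (8.30 and 6.21 against 3.01 and 2.96). The 4 dLGN libraries had 3.03 to 3.64 at C1qc, near the WT values. The 2 falls were at the starts of Bbox1, a carnitine enzyme (3.88 and 4.66 against 11.2 and 9.27), and Zfp994 (11.3 and 9.55 against 23.6 and 23.5). At Zfp994 the 6 libraries without the knockout lay between 23.0 and 26.8, and both KO libraries near 10.

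These differences gathered on chromosome 17 around Tnfrsf12a. The cause was not tested. The chromosome and the 20 Mb limit were chosen after the values were seen, so the shares and counts are descriptions. Of the 28 regions, 9 lay on chromosome 17, which holds 702 of the 15329 regions compared. All 9 lay within 20 Mb of the Tnfrsf12a start, where 418 regions were compared, while none of those farther out on the chromosome passed. Within 20 Mb 2.15% of regions were over 2-fold apart, and over the rest of the genome 0.127%. They included Zfp994 (1.45 Mb before in genome order), Prss22, Jpt2, Tcp11, H2-Q6, Psors1c2, Cdsn and Tcte2. H2-Q6, a class I antigen-presentation gene of the MHC, had folds of 10.7 and 8.48 in KO against 3.42 and 4.83 in WT, and Prss22, a protease gene 0.323 Mb away, 5.93 and 6.69 against 2.32 and 2.96. Leaving out 1 library at a time gave 8 to 12 such regions within 20 Mb, of 41 to 85 genome-wide. Without KO 2, WT 1 or WT 2 the genome-wide count was 85, 74 or 59. In the chow comparison, read the same way, none of 700 regions on chromosome 17 passed, and 4 of 15644 did in all. Presence calls did not gather so on the chromosome as a whole, and they were not counted within 20 Mb. Of KO-only gene-end regions 5.57%, and of WT-only ones 4.71%, were on chromosome 17, which holds 4.59% of all.

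**Figure D5:**
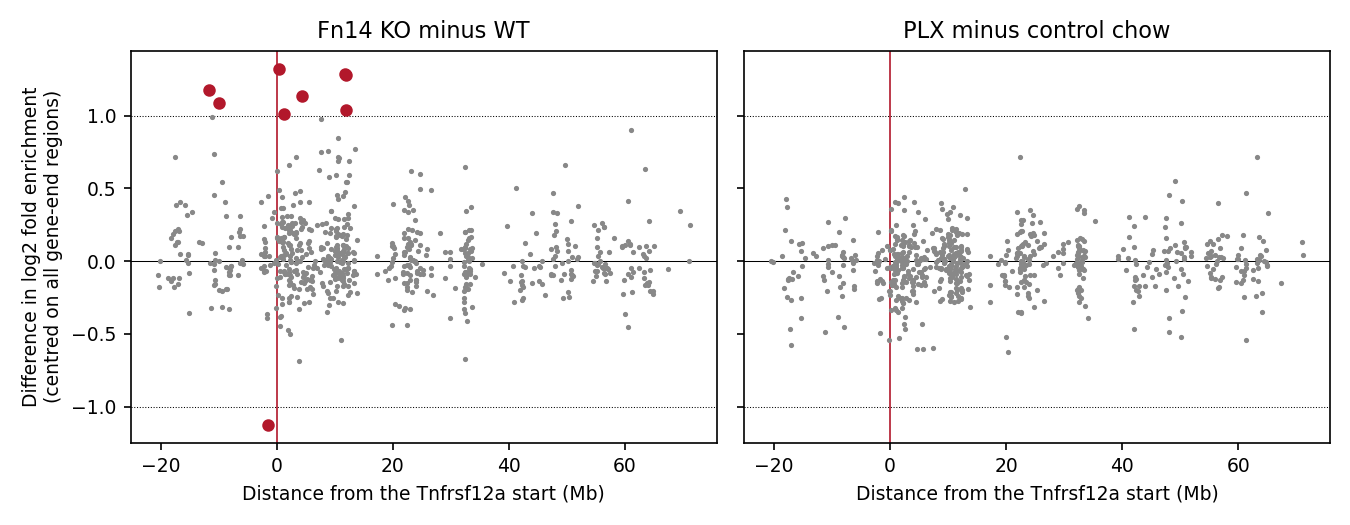
Each point is a gene-end region on chromosome 17, by its distance in Mb from the Tnfrsf12a start and the difference in log2 fold enrichment, centred on all gene-end regions, for KO minus WT (left) and PLX minus control chow (right). The 9 regions over 2-fold apart (large points, dotted lines at 1 and -1) all lie within 20 Mb in the left panel, and the right panel has none.

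Some gene starts on chromosome Y split the libraries across the groups, while Gm52481 on that chromosome had a start and an end region listed in all 8. At Eif2s3y, a translation factor gene, the folds were 16.6 in KO 1 and 18.2 in WT 2, and KO 2 and WT 1 had no peak. Uty, a demethylase gene, had 20.3 in KO 1 and 20.2 in WT 2, and Ddx3y 14.8 and 19.1, again with no peak in KO 2 and WT 1. In the dLGN, PLX chow had lower folds than control chow at all 3: 8.65 and 7.41 against 16.1 and 15.2 at Eif2s3y, 11.5 and 13 against 21.3 and 16.2 at Uty, and 10.4 and 7.15 against 22.7 and 18.9 at Ddx3y. Each section group thus held 1 library with and 1 without these peaks, and the chow groups differed. Libraries with peaks at these 3 starts (KO 1 and WT 2) and libraries without them (KO 2 and WT 1) were compared separately. The share of gene-end regions with a peak was higher in KO by 5.48 and 4.38 percentage points. With chromosomes X and Y left out, 710 regions were present in KO only and 190 in WT only. The share among the 50000 strongest changed sign between these pairs, with KO minus WT at 0.728 and -0.386 percentage points. The difference in the −log10 p ratio was -0.0190 and -0.825, in the fold ratio -0.134 and -0.212, and in the width ratio -0.120 and -0.0805.

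Pgk1, a glycolysis gene on chromosome X and the highest-ranked of the housekeeping list, stood higher in KO. In KO the −log10 p at its start was 530 and 458, and in WT it was 276 and 221, with folds of 19.3 and 18.1 against 15.1 and 14.3. The dLGN libraries had folds of 20.3 to 21.6. Both KO libraries, 1 with and 1 without the Eif2s3y, Uty and Ddx3y peaks, lay above both WT libraries. By percentile, 20.5% of all genes with a value were higher in both KO than in both WT libraries. The cause at Pgk1 was not tested.

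PLX chow and control chow, both from dLGN, were the most alike. A peak was present in 63.7% ± 0.944 of gene-end regions with PLX chow and 65.9% ± 0.190 with control chow (SD, n = 2 each), and the difference shrank from -2.16 to -0.265 percentage points with lists of equal length. The exact permutation p was at least 0.33 for all 5 values. By presence 164 gene-end regions (0.739%) were in PLX only, where 1.56% of all regions were, and 395 (1.78%) in control only, where 2.87% were. Among the 50000 strongest, no gene-end region was called in either direction, against 0.000342% and 0% of all regions. The top regions in PLX only were weak, such as Pla2g15 (a lysosomal lipase, 3.44 and 3.49), Trim21 (an antibody receptor, 4.18 and 3.26), Kcna3 and Abhd5, with Sall3, Mpdz, Pnpla3, Lrrc49, Otud6b and Gpr149. In control only they were BC049762 (3.12 and 2.89), Thbs3 (a thrombospondin, 3.42 and 3.74), Pde5a (a phosphodiesterase, 5.56 and 3.97), Olfr111, Olfr1221, Neurl2, Spata45, Anxa3, Cbfa2t2 and Dcun1d5.

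Microglial genes had fewer gene-end peaks with PLX chow. Of 25 markers, 10 and 10 had a peak in the PLX libraries and 12 and 14 in the control libraries, against 14 to 20 in sections. Over all genes the counts were 15018 and 15131 with PLX and 15307 and 15315 with control chow. The groups did not overlap, but with lists of equal length the counts were 10 and 10 against 10 and 14. At the start of Trem2, a lipid receptor of microglia, PLX libraries had no peak and controls had folds of 2.33 and 2.14. Cx3cr1, the fractalkine receptor, had 2.30 to 3.01 in sections and no peak in any dLGN library. At Tmem119, 1 end had a peak in the second control library only among dLGN libraries (2.65), and the other end in both PLX and that control (3.13, 3.38 and 2.96). Csf1r, the growth factor receptor on which microglia depend, was listed once in dLGN (1.72 in control 1), and Tyrobp only in sections.

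Strong microglial starts were still listed with PLX chow. P2ry12, a purinergic receptor, had folds of 11.3 and 9.93 with PLX and 13.8 and 9.72 with control chow. Irf8, a microglial transcription factor, had 5.89 and 8.57 against 11 and 7.95, which overlap. Of 9 microglial genes with a percentile, 3 were higher in both control libraries (Irf8, P2ry12 and Sall1) and none in both PLX libraries, where 20.1% and 7.5% of all genes were so. Aif1, Ctss, Itgam and Laptm5 had no gene-end region in any library.

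Among other lists, 21 of 77 ribosomal protein genes and 14 of 60 histone genes ranked higher in control chow and 2 of each in PLX, beside the background of 20.1% and 7.5%. Of 22 synapse genes 7 were higher in control and 3 in PLX. Fold enrichment, chosen after the values were seen, was over 2-fold apart at 4 of 15644 regions. It was higher with PLX at Vnn1 (a pantetheinase, 7.15 and 8.32 against 3.84 and 3.47) and at the end of Nme6. It was lower at Ddx3y and at Anxa3 (1.88 and 2.86 against 4.86 and 4.69). Ddx3y lies on chromosome Y, where Eif2s3y and Uty were also lower with PLX. The sex of the mice is not stated, so sex and chow cannot be told apart there. Tlr4, an innate receptor expressed by microglia, came close, with 3.26 and 5.46 against 9.10 and 7.04.

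The dLGN libraries as a whole differed from the section libraries in the shape of gene-end peaks. The fold of gene ends over other regions was 2.38 ± 0.115 in dLGN and 1.98 ± 0.104 in sections (SD, n = 4 each), with no overlap (exact permutation p = 0.0286, adjusted over 5 values 0.0476). The width ratio was lower in dLGN, 2.48 ± 0.0488 against 2.77 ± 0.0604, and the share of gene ends among the 50000 strongest was 23.0% ± 0.508 against 24.1% ± 0.383 (both p = 0.0286, adjusted 0.0476, exact permutation). The −log10 p ratio (6.44 against 5.42, p = 0.114, exact permutation) and the share of gene ends with a peak (64.8% against 67.5%, p = 0.229, exact permutation) did not pass. With lists of equal length the share with a peak did, at -2.16 percentage points (p = 0.0286, exact permutation). Among only the 50000 strongest regions the fold difference was gone (-0.00545). Tissue, age, chow and genotype background change together here and cannot be told apart.

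Gene ends held few regions found in 1 tissue alone. By presence, 404 gene-end regions (1.43%) were in all dLGN and no section library, where 4.5% of all regions were, and 465 (1.65%) in sections only, where 4.24% were. Among starts the shares were 0.915% and 0.894%, and among ends 2.14% and 2.78%. By the stricter rule with the 50000 strongest, 12 were in dLGN only and 29 in sections only, where 0.224% and 0.4% of all regions were. By the presence rule, starts found in 1 tissue alone were poor in CpG. The 64 promoters of starts in dLGN only had a median of 3 CpG and the 38 in sections only had 3. The 5656 present in all 8 libraries had 20, but the 357 listed in just 1 library had 4. Those in KO only (64) had 6, those in WT only (18) 5, those in PLX only (8) 2.5 and those in control chow only (62) 5.5. Few CpG were thus common to starts not listed throughout, and not particular to a tissue.

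The strongest regions in dLGN only lay at genes of many kinds. A region at 1 border of Foxp2, a transcription factor on the thalamic list, had folds of 12.3, 8.96, 10.2 and 8.36 in the dLGN libraries and no peak in sections, while the region at its other end was present in all 8 (4.50 to 7.46). Gxylt2, a xylosyltransferase gene, led the list with 18.4, 13.4, 13.6 and 14.5, followed by Ces1d, Gpc3 (a glypican), Ssu2, Fam20b (a kinase), Gimap7, Clca4a, Adam30 and Npy, the neuropeptide Y gene (6.78, 6.40, 6.18 and 7.54). In sections only the first 10 included Colec10 (a collectin, 11.6, 8.04, 9.19 and 9.01), Nxf7, B430306N03Rik, Asb13, Dph5, Kcnk12 (a potassium channel), Smim43, Rhobtb3 and Ubtd2. Of the 10, 7 lay at gene ends of known strand and 1, Nxf7, at a start.

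Of 13 cortical and hippocampal genes with a percentile, 3 ranked higher in sections and 1 in dLGN, where 29% and 11.2% of all genes did. The start of Neurod6, a factor of cortical and hippocampal excitatory neurons, had folds of 5.59, 5.09, 6.41 and 5.28 in sections and 1.94, 2.41, 2.11 and no peak in dLGN. The region at its end went the other way, with 5.54, 4.19, 4.20 and 4.08 in sections and 8.54, 7.02, 6.98 and 7.42 in dLGN. Emx1, another cortical factor, had section and dLGN folds of 4.30, 5.73, 4.57 and 4.97 against 3.26, 2.86, 3.74 and no peak. At both starts all 4 section libraries lay above the dLGN libraries. Slc17a7, the cortical glutamate transporter, was listed at its start in 3 libraries with folds of 2.03 to 2.71, and the strongest of the regions at the Neurod2 start was listed in the KO libraries only (3.46 and 3.11). Tbr1 overlapped between tissues at its start, with 2.31 to 2.60 against 2.25 to 3.74.

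Of 10 genes of the thalamic list with a percentile, 2 ranked higher in dLGN (Lhx9 and Shox2) and 2 in sections (Calb2 and Cacna1g). Several factors of the list had higher folds in dLGN. Shox2 had 4.15, 4.59, 4.0 and 4.45 in dLGN and 2.44 and 3.13 in 1 KO and 1 WT library, and a second region at its start was in dLGN only. Lhx9 had 7.18, 6.02, 6.23 and 6.36 against 4.42, 2.69, 3.19 and 3.52, and Gbx2 4.51, 7.13, 5.56 and 6.62 against 4.19, 3.10, 3.24 and 3.11. At its start Tcf7l2 had 7.34 to 10.2 against 4.35 to 6.05. At its end a weak region went the other way, listed in all section libraries (2.30 to 2.96) and no dLGN library. Another weak end region was listed only in PLX chow 1 (2.63) and control chow 1 (2.12). Slc17a6, the thalamic glutamate transporter, had 6.86 to 8.84 against 4.85 to 6.86. Folds were higher in dLGN in general, by 0.37 on the log2 scale at the median of gene-end regions, and Slc17a6 moved little beyond that shift.

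Centred on that median, 74 of 13982 gene-end regions were over 2-fold higher in dLGN and 121 over 2-fold higher in sections. These were 2.84% and 2.99% of the 1305 end regions and 0.152% and 0.598% of the 9868 starts, a difference that was not tested. End regions also had a wider spread, with the middle 90% of differences from -0.83 to 0.81, against -0.53 to 0.36 at starts. The largest, named after their values were seen, were the ends of Gtpbp10 (14.8 to 17.5 in dLGN, 1.91 to 3.27 in sections) and Ttc5 (13.5 to 16.7 against 2.60 to 3.15) and a region at Muc15. Higher in sections were the end of Tnfaip3, the NF-κB feedback inhibitor (9.94 to 14.5 against 2.01 to 3.26), and the end of Chia1 (13.2 to 13.4 against 2.02 to 5.18). At its other border Tnfaip3 was open alike, with 11.8 to 15.0 in all 8 libraries. P2ry12 was the microglial gene that stood out in dLGN, with 9.72 to 13.8 against 3.67 to 5.01.

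By percentile, 29% of genes ranked higher in sections and 11.2% in dLGN. Ribosomal protein genes leaned to sections, with 41 of 77 higher there and 1 in dLGN, as did histone genes with 25 of 60 and none. Of 13 astrocyte genes 6 were higher in sections, among them Aldoc and Sox9, and 1 in dLGN (Glul). Of 13 oligodendrocyte genes none was higher in sections and 2 were in dLGN (Ermn and Mog), a marker set whose list had 14 to 15 of 15 genes with a peak in every library. Of 18 activity-regulated genes 5 were higher in sections, Egr1, Fos, Ier2, Npas4 and Nptx2, and 1 in dLGN, Nr4a2.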

How the data were processed

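ATAC-seq peaks of 8 libraries were analysed as deposited, called by the authors separately in each library. Per the labels' protocols nuclei were tagmented with a Nextera kit. Per the deposited file names and instructions the lists come from the ENCODE ATAC pipeline, with paired ends, a peak p-value threshold of 0.01 and at most 300000 peaks. deepTools 3.5.0 is named in the submitters' processing notes; aligner and peak caller: not given in the sources used here. The authors' columns hold a fold enrichment (a ratio over local background), a −log10 p-value and a −log10 q-value per peak; no read counts were used, so depth and counting error are unknown.

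Peaks overlapping by at least 1 bp were merged over all libraries, and a region took, per library, the highest fold, the highest −log10 p and the bp its peaks cover (width). Gene borders and promoters came from RefSeq (GRCm38.p6, the coordinates of mm10), matched by gene ID. The strongest regions of a library were those with the highest −log10 p. Presence, the share among the 50000 strongest regions and ratios of medians within a library were compared with exact two-sided permutation tests over libraries. Ratios within all 8 libraries were compared with sign-flip tests. Benjamini-Hochberg adjustment was over the 5 values of a group comparison. Percentiles of genes were only counted as separated between groups or not, with no test. The work was done in Python 3.11.15 with pandas 2.3.3 and scipy 1.17.1. The procedure was tested on simulated data. Named genes are Tnfrsf12a and Tnfsf12, the 10 strongest and 10 widest regions, the 10 called regions per direction whose weakest library had the highest −log10 p, the 2 highest and 2 lowest members of each list, 8 microglial genes for the chow comparison and 9 regional genes for dLGN against sections. All other genes, those given as examples of list counts included, were chosen after their values were seen. The members and lists were chosen with earlier results of these data known. Alternatives were other windows, list lengths and left-out libraries. A few genes that this rule names are not reported here.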

Additional observations from a re-analysis of the deposited data

Results flagged for a closer look

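The first PLX chow library stood apart from the other 3 dLGN libraries in 2 values. Gene-end regions made up 22.3% of its 50000 strongest regions, and its gap to the nearest library was 0.856 of the whole range. Its gene-end regions were 2.41 times as wide as other regions, with a gap of 0.892 of the range. Both exceed the critical value of Dixon's test for 4 libraries. In 20 sets of values tested, chance flags about 5% each. Its list was also the shortest in peaks (248989), and the cause was not tested.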

How the results depend on the processing

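Gene ends exceeded other regions in fold, −log10 p and width under every alternative run for these 3 ratios. The KO minus WT difference in the share among the 50000 strongest turned to -0.266 without the first KO library (range -0.266 to 0.608 over left-out libraries), and that in the −log10 p ratio to 0.00319 with 500 bp windows. For PLX minus control chow the share ranged from -0.971 to 0.111 over left-out libraries, and the width ratio turned to 0.00236 with lists of equal length. For dLGN minus section, the share with a peak turned to 0.903 with only WT and control chow libraries and reached -2.16 (p = 0.0286, exact permutation) with lists of equal length. Among the 50000 strongest regions the fold difference was -0.00545 and the −log10 p difference -0.507. With only WT and control chow libraries, too few to reach the threshold, the share among the strongest was -0.755, the fold difference 0.376 and the width difference -0.314. The width difference was -0.0734 with 2 kb windows, where the −log10 p difference was 0.783. Over left-out libraries the share among the strongest ranged from -1.17 to -0.804, losing its call without the first PLX library, and the fold difference from 0.367 to 0.463, losing it without either KO library; the −log10 p difference ranged from 0.840 to 1.36 and passed without the first PLX library. Regions called by presence numbered, with 500 bp and 2 kb windows, 410 and 1262 in KO only, 122 and 341 in WT only, 92 and 293 in PLX only, 238 and 614 in control only, 265 and 750 in dLGN only, and 275 and 865 in sections only. With 1 library left out they ran from 1246 to 2467 in KO only, 440 to 1395 in WT only, 383 to 1041 in PLX only and 711 to 1502 in control only, since fewer libraries must lack the peak or carry it. KO only fell to 465 with lists of equal length, and WT and control libraries alone gave 1126 in dLGN only and 810 in sections only. By the stricter rule, the 100000 strongest gave 59 in KO, 8 in WT, 5 in PLX, 10 in control, 93 in dLGN and 150 in sections only. The 25000 strongest gave 0 in KO, 1 in dLGN and 2 in sections only. For dLGN only, 500 bp windows gave 5, 2 kb 23, and the region centre 7; for sections only 2 kb gave 59. WT and control libraries alone gave 37 and 49. With 1 library left out the stricter rule gave 2 to 7 in KO, 0 to 2 in WT, 12 to 25 in dLGN and 30 to 48 in sections only. Same-numbered libraries of KO and WT (correlation 0.0736) and of the chow groups (-0.0387) did not deviate together, so the numbers do not pair them; with a replicate block the genes ranked higher numbered 3925 in KO and 3711 in WT, 1716 in PLX and 3936 in control chow.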
